A study of Mus musculus with 24 samples.

Results

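Wnt signaling was examined in mouse calf muscle through 10 genes chosen by name, of 55385 genes counted in each library. They were 4 readouts and effectors of the pathway (Axin2, Lef1, Tcf7l2 and Ctnnb1) and 6 secreted inhibitors (Sfrp1, Sfrp2, Sfrp4, Sfrp5, Dkk3 and Wif1). Each symbol was matched to 1 gene identifier, and all 10 genes passed the filter on low counts. The RNA came from gastrocnemius of female C57BL/6J mice in 6 groups of 4, with 1 library per mouse. Young mice (3 to 6 months), old mice (21 to 24 months) and oldest-old mice (27 to 29 months) received AAV-GFP, an adeno-associated virus that carries green fluorescent protein. Further old and oldest-old mice received AAV-Kl, which carries mouse Klotho. Another group of young mice was labelled Sham, with no further account of what was done to them. Both vectors use a liver promoter, and the level of Klotho in these mice was not analysed here. They were given by tail vein at a dose of 300000000 vector genomes per mouse, and muscle was taken 14 days later.

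Wnt proteins are secreted ligands that bind Frizzled receptors together with the co-receptors Lrp5 and Lrp6. In the canonical branch, receptor binding stops the destruction complex from degrading β-catenin, the product of Ctnnb1, which then enters the nucleus and acts through DNA-binding proteins of the TCF/LEF family such as those encoded by Lef1 and Tcf7l2. Axin2 is a scaffold of the destruction complex and a direct target of the pathway, and for that reason its transcript is widely used as a readout. Secreted frizzled-related proteins (Sfrp genes) and Wif1 bind Wnt ligands outside the cell, while Dkk3 is a divergent member of the Dickkopf family. In muscle the pathway acts on satellite cells, on the fibro-adipogenic cells of the interstitium and on fibrosis with age. Klotho protein is known to bind Wnt ligands.

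Between 36415886 and 59733985 reads per library fell on genes (median 49486060.5), and no pair of libraries held identical counts. Summed levels of 10 muscle fibre genes lay between 119400 and 179900 CPM (the reads of a gene divided by the reads of its library, with TMM scaling, and expressed per 1000000), with none of the 10 at 0 in any library. Some libraries stood apart. Young GFP replicates 1 and 3 held 10 keratinocyte genes at summed levels of 136 and 427 CPM, young sham replicate 4 held them at 158 CPM and old AAV-Kl replicate 2 at 78.3 CPM. Old GFP replicates 1 and 4 held 10 hepatocyte genes at 887 and 94.8 CPM and old AAV-Kl replicate 4 held them at 149 CPM. Counts of members called are therefore also given without the young GFP and the old GFP pair, and the sham and AAV-Kl libraries were left out one at a time.

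The members lay on 8 chromosomes of GRCm38 and each is a protein-coding gene. The following stretches are the 250 bases before the RefSeq transcription start (build GRCm38.p6), 5′ to 3′ on the strand of the gene. They are shown for the 3 members that differed between young GFP and both aged GFP groups, and for 1 of 4 starts of Lef1. Capitals mark the core letters to which TCF/LEF proteins are known to bind, searched as CTTTGA and CTTTGT on both strands (TCAAAG and ACAAAG on the other strand).
Axin2 (chr11:108920099-108920348, + strand): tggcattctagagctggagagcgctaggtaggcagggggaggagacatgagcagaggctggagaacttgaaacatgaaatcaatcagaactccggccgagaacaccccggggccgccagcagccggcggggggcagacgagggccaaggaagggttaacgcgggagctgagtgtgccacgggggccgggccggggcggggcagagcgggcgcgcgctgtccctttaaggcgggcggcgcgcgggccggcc
Sfrp5 (chr19:42202253-42202502, − strand): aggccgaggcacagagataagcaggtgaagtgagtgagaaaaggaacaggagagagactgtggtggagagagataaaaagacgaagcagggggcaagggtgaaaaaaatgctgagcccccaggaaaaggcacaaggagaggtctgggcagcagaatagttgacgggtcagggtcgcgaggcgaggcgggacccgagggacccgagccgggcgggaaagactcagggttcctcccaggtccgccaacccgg
Wif1 (chr10:121033754-121034003, + strand): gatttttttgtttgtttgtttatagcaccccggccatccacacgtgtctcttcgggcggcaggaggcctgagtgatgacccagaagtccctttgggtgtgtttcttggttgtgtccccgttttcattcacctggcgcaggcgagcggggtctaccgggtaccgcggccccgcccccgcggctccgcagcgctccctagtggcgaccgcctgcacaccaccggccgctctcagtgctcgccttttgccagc
Lef1, start inside the gene (chr3:131156044-131156293, + strand): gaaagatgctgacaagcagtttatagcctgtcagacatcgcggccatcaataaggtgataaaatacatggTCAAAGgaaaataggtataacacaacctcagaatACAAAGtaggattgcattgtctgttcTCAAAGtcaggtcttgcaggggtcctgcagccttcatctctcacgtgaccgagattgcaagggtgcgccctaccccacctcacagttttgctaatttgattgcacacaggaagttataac

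The RefSeq table held 12 starts for 7 members. The core letters were found before 2 of these 12 starts, against 27.62% of all 32851 stretches of the same length. The stretch before the inner start of Lef1 held 3 matches, the farthest starting 180 bases before the start. The stretch before an inner start of Tcf7l2 held 1 match, 14 bases before the start. The stretches of Axin2, Sfrp5 and Wif1 held no match, which says only that these letters are not in these windows. Counts were made per gene, so the use of one start or another could not be measured. GC content was 69.2% for Axin2, 62.8% for Wif1 and 59.6% for Sfrp5, beside a median of 52.4% over all stretches.

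Ordered by level per kilobase of exon, the members were spread widely among the tested genes. Ctnnb1 stood first, at a mean of 29.2 CPM per kb over the 24 libraries, above 94.2% of the tested genes. Sfrp5 followed at 8.17 CPM per kb. Its range of 4.14 to 12.4 did not meet that of Ctnnb1, which was 27.1 to 31.4. Dkk3 (mean 2.09 CPM per kb), Sfrp4 (1.51) and Axin2 (1.36) came next, and Sfrp2 (0.839), Tcf7l2 (0.764), Sfrp1 (0.694) and Wif1 (0.624) after them. Within this run from Dkk3 to Wif1 the ranges of neighbours overlapped. Lef1 was last at 0.0511 CPM per kb, with a range from 0.00266 to 0.263, and lay above 3.63% of the tested genes. Ctnnb1 varied least, with an SD of 0.061 on the log2 scale over 24 libraries, and Lef1 varied most, with an SD of 1.55. Wif1 was the next most variable at 1.39.

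**Figure D1:**
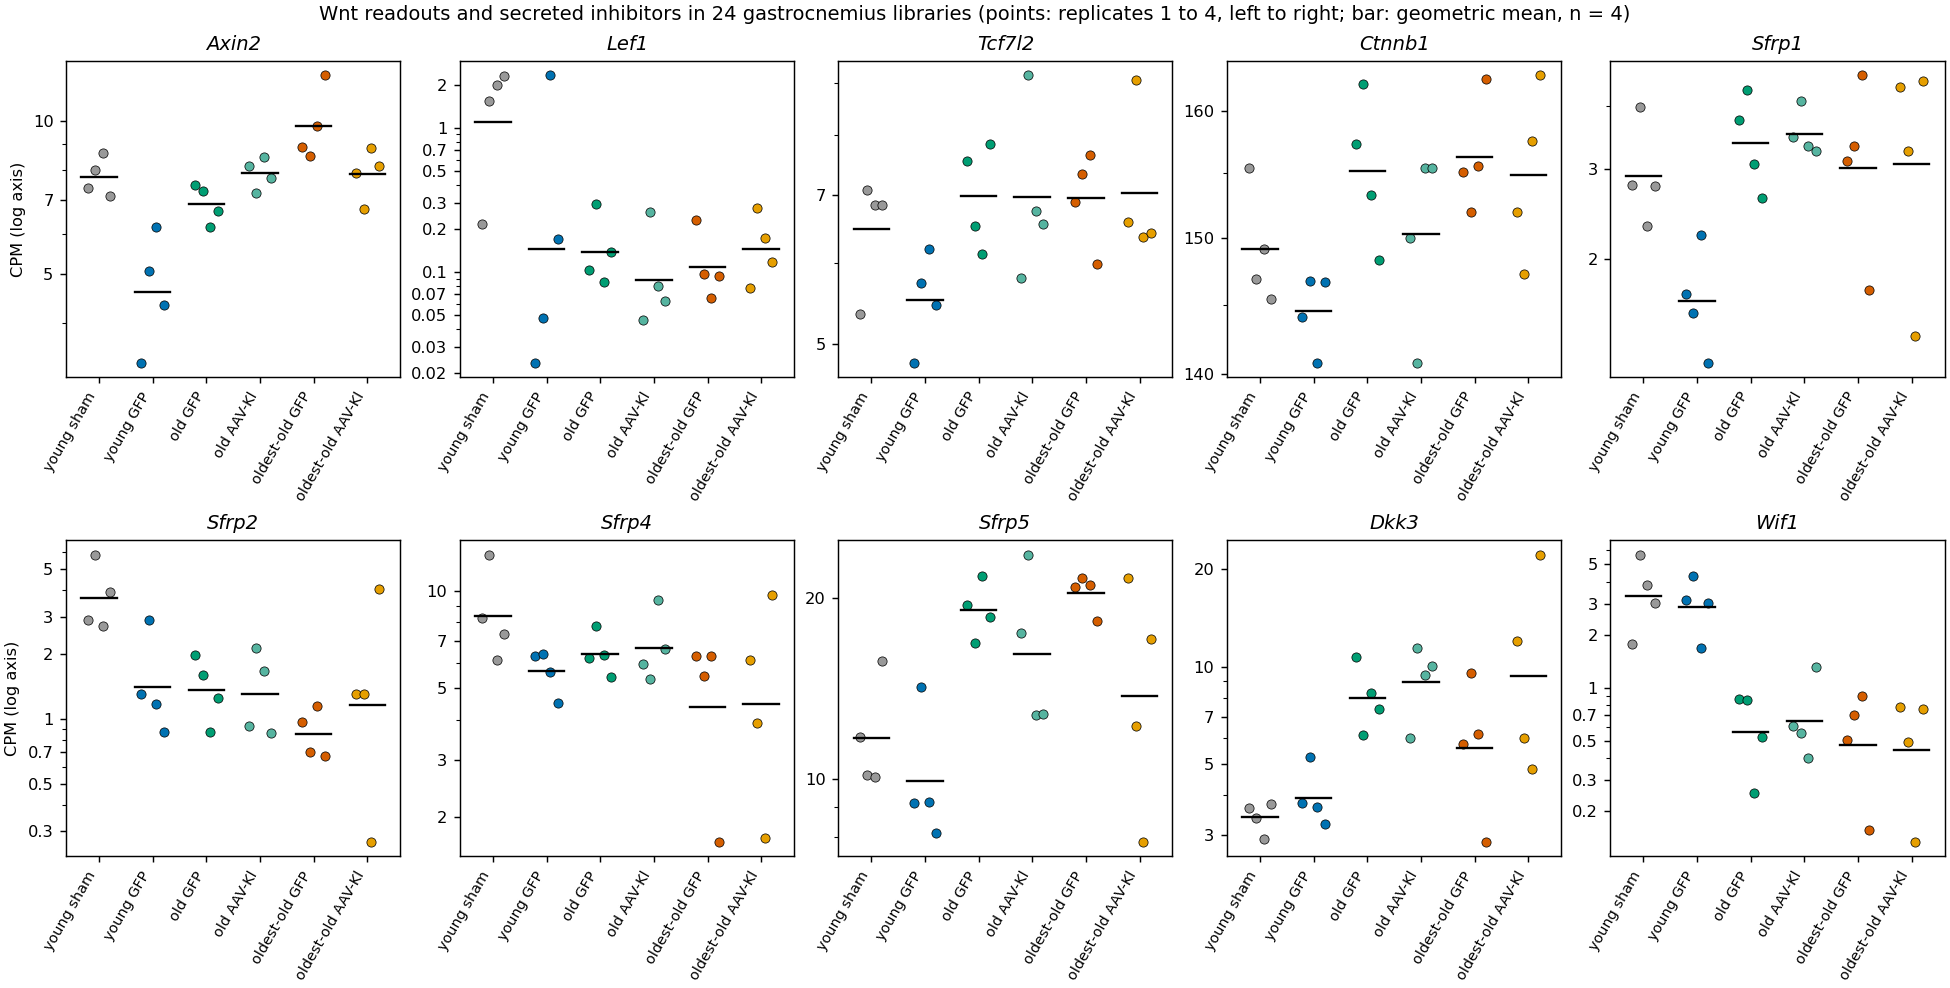
Level of each of the 10 members in CPM (log axis) in 24 libraries, with 4 points per group for replicates 1 to 4 and a bar at the geometric mean. All Wif1 values of the young groups, 1.68 CPM and above, lie over those of the aged groups, the highest of which is 1.31 CPM, and Axin2 of young GFP mice lies below Axin2 of young sham mice.

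Axin2 (ENSMUSG00000000142.15, chromosome 11 from 108920349 to 108950783) was lowest in young GFP muscle, at 3.35, 5.07, 6.17 and 4.35 CPM in replicates 1 to 4. It was measured at 7.48, 7.27, 6.18 and 6.64 CPM in old GFP muscle and at 8.88, 8.52, 9.77 and 12.3 CPM in oldest-old GFP muscle. The 4 oldest-old values lay above all old values, and the lowest old value exceeded the highest young GFP value by less than the third digit shows (6.176 against 6.171). In young sham muscle, however, Axin2 stood at 7.37, 7.996, 8.64 and 7.13 CPM, which overlapped old GFP muscle and lay above all young GFP values.

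Old GFP minus young GFP compares mice of 21 to 24 months with mice of 3 to 6 months. Axin2 rose by 0.54 on the log2 scale (SE 0.145, edgeR quasi-likelihood adjusted p = 0.0368, n = 4 and 4), a 1.46-fold difference. Sfrp5, one of the soluble Frizzled-related inhibitors, rose by 0.92 (SE 0.249, adjusted p = 0.0387). Wif1, which binds Wnt ligands directly, fell by 2.26 (SE 0.53, adjusted p = 0.0172), to 0.209 of the young GFP level. These were 3 of 10 members, 2 higher and 1 lower, where 4.7% of the 17803 tested genes passed an adjusted p of 0.05 in either direction. At an unadjusted p under 0.05, 8 members were counted, 6 higher and 2 lower, against 19.1% of the tested genes. Without young GFP replicates 1 and 3, and likewise without old GFP replicates 1 and 4, no member passed the adjusted threshold, although the fits then rested on 2 libraries in 1 group and the fold changes of Axin2, Sfrp5 and Wif1 kept their signs.

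Sfrp5 (ENSMUSG00000018822.7, chromosome 19 from 42197971 to 42202252) was measured at 9.13, 14.2, 9.17 and 8.12 CPM in young GFP muscle. Old GFP muscle held 19.5, 16.9, 21.8 and 18.6 CPM and oldest-old GFP muscle 20.9, 21.7, 21.03 and 18.4 CPM. No aged GFP library reached down to the highest young GFP value. In young sham muscle Sfrp5 was at 11.8, 10.2, 10.1 and 15.7 CPM, also below all 8 aged GFP libraries. The AAV-Kl groups overlapped both young groups, at 12.8 to 23.7 CPM in old and 7.86 to 21.7 CPM in oldest-old mice. The old against young difference passed the threshold by little: after leaving out single libraries the adjusted p lay above 0.05 in 7 of 8 cases, all but young GFP replicate 2, with a highest value of 0.119 without young GFP replicate 4.

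The difference in Axin2 between old and young GFP muscle was likewise close to the threshold. Its adjusted p exceeded 0.05 when any of old GFP replicates 1, 2 and 4 or young GFP replicates 1, 2 and 4 was left out, in 6 of 8 cases, and was highest at 0.116 without old GFP replicate 1. With only the 8 libraries compared in the fit the adjusted p of Axin2 was 0.0845 and that of Sfrp5 passed. In all, the call was lost in 12 of 17 alternative fits for Axin2 and in 11 of 17 for Sfrp5, against 2 of 17 for Wif1.

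Wif1 (ENSMUSG00000020218.11, chromosome 10 from 121033960 to 121100650) showed the largest difference of the members that passed. It stood at 3.16, 4.32, 1.68 and 3.04 CPM in young GFP muscle and at 1.78, 5.69, 3.83 and 3.04 CPM in young sham muscle. Old GFP muscle held 0.860, 0.851, 0.254 and 0.527 CPM, and oldest-old GFP muscle 0.510, 0.700, 0.894 and 0.156 CPM. All 8 young libraries lay above all 8 aged GFP libraries. The AAV-Kl groups remained at the aged level, with 0.606, 0.558, 0.399 and 1.31 CPM in old and 0.779, 0.493, 0.134 and 0.757 CPM in oldest-old mice. Across the 24 libraries, which differ in age, vector and depth, log2 Wif1 followed the summed level of 10 tenocyte genes (Pearson r = 0.846, a description). That sum ranged from 192 to 365 CPM in young GFP, from 150 to 329 CPM in old GFP and from 104 to 241 CPM in oldest-old GFP muscle, with none of the 10 genes at 0. Of the 10 tenocyte genes, 0 passed in old and 1 in oldest-old against young GFP muscle, with median log2 differences of -0.26 and -0.53. The shares of all tested genes that passed were 4.7% and 14.9%. The part of tenocyte content in the Wif1 difference was not tested, and in bulk tissue fewer cells of a type and less RNA per cell cannot be told apart.

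Oldest-old GFP minus young GFP spans the full range of ages. Axin2 rose by 1.06 on the log2 scale (SE 0.145, edgeR adjusted p = 0.000119), a 2.08-fold difference. Sfrp5 rose by 1.01 (SE 0.249, adjusted p = 0.00973) and Sfrp1 by 0.91 (SE 0.301, adjusted p = 0.0468), while Wif1 fell by 2.45 (SE 0.536, adjusted p = 0.0048). These 4 of 10 members, 3 higher and 1 lower, compare with 14.9% of the tested genes. At an unadjusted p, 7 members were counted against 29.8% of the tested genes. Without young GFP replicates 1 and 3, 2 members passed, Axin2 and Wif1. The comparisons of old and of oldest-old with young GFP share the 4 young GFP libraries, so their values for a member are not independent.

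Markers of some cell types differed beside Axin2 in oldest-old against young GFP muscle. Of 10 endothelial genes 3 were called higher and 0 lower, with 8 positive and a median log2 difference of 0.27, and their summed level was 415 to 517 CPM in oldest-old GFP, 364 to 416 CPM in young GFP and 407 to 443 CPM in young sham muscle. Of 10 muscle fibre genes 1 was called higher and 2 lower, with a median of -0.21. Over all tested genes, 8.8% were called higher and 6.08% lower in this comparison. The fibre sum lay between 119400 and 154900 CPM in oldest-old GFP muscle, below all young GFP libraries (157100 to 179900 CPM). In young sham muscle it lay between 135200 and 175400 CPM, which overlapped oldest-old GFP muscle. Over 24 libraries Axin2 had an r of -0.555 with the fibre sum and of 0.364 with the endothelial sum, as a description. None of the genes of either list was at 0, and the part of these cells in the Axin2 difference was not tested.

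Sfrp1 (ENSMUSG00000031548.7, chromosome 8 from 23411502 to 23449632), a Frizzled-related inhibitor expressed by stromal cells, was at 1.71, 1.57, 2.24 and 1.26 CPM in young GFP muscle. It was at 3.75, 4.29, 3.07 and 2.63 CPM in old GFP muscle, all above young GFP, and at 3.11, 3.33, 4.58 and 1.74 CPM in oldest-old GFP muscle, where replicate 4 lay within the young GFP range. In old against young GFP muscle the log2 difference was 1.02 with an edgeR adjusted p of 0.0555, and DESeq2 gave 0.0211. In oldest-old against young GFP muscle the call was lost in 6 of 8 fits that left out 1 library, namely oldest-old GFP replicate 1, 2 or 3 or young GFP replicate 1, 2 or 4, with a highest adjusted p of 0.155 without oldest-old GFP replicate 3, and in 14 of 17 alternative fits in all. Young sham muscle held 2.79, 3.97, 2.33 and 2.79 CPM of Sfrp1, above every young GFP library. Over 24 libraries Sfrp1 followed the summed level of 10 macrophage genes (r = 0.669, a description), which ranged from 70.02 to 113 CPM in young GFP, from 109 to 205 CPM in young sham, from 102 to 207 CPM in old GFP and from 122 to 187 CPM in oldest-old GFP muscle, the last above all young GFP libraries. Of the 10 macrophage genes 9 were higher in old and 9 in oldest-old than in young GFP muscle, with median log2 differences of 0.76 and 0.83. At an unadjusted p, 10.8% and 16.9% of all tested genes were counted as higher. Of the macrophage genes 4 and 5 were counted, all higher. None of the 10 passed the adjusted threshold, none was at 0, and their part in the Sfrp1 difference was not tested.

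Dkk3 (ENSMUSG00000030772.6, chromosome 7 from 112116017 to 112159057) was at 3.79, 5.26, 3.67 and 3.26 CPM in young GFP muscle and at 2.92 to 3.74 CPM in young sham muscle. Old GFP muscle held 10.7, 6.14, 8.26 and 7.42 CPM, above all 8 young libraries. Oldest-old GFP muscle held 5.77, 9.53, 6.17 and 2.87 CPM, and replicate 4 lay below every young GFP library. The log2 difference from young GFP was 1.03 in old (SE 0.379, edgeR adjusted p = 0.129) and 0.60 in oldest-old muscle (SE 0.379, adjusted p = 0.305). Neither passed, although a fit on the 8 libraries of old and young GFP muscle alone gave an adjusted p of 0.0163 for the first.

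Ctnnb1 and Tcf7l2, effectors of the pathway, passed in neither comparison with young GFP muscle. Ctnnb1 (ENSMUSG00000006932.17, chromosome 9 from 120929216 to 120960507) was at 144, 147, 141 and 147 CPM in young GFP, at 157, 162, 153 and 148 CPM in old GFP and at 155.1, 152, 156 and 163 CPM in oldest-old GFP muscle. All aged GFP libraries lay above the young GFP libraries, with log2 differences of 0.10 (95% interval 0.01 to 0.20, edgeR adjusted p = 0.208) and 0.11 (0.02 to 0.21, adjusted p = 0.0948). Young sham muscle held 145.4 to 155.4 CPM of Ctnnb1 and overlapped both aged GFP groups. Against sham the log2 differences were 0.057 in old and 0.067 in oldest-old muscle (edgeR adjusted p = 0.498 and 0.328). Tcf7l2 (ENSMUSG00000024985.20, chromosome 19 from 55741820 to 55933654) was at 4.798, 5.74, 6.19 and 5.46 CPM in young GFP and at 7.55, 6.53, 6.12 and 7.85 CPM in old GFP muscle, which overlapped. Its log2 difference was 0.34 in old (95% interval 0.041 to 0.635) and 0.33 in oldest-old muscle (0.031 to 0.624), with edgeR adjusted p of 0.191 and 0.127. Against young sham Tcf7l2 differed by 0.104 (-0.191 to 0.399) in old and by 0.093 (-0.201 to 0.388) in oldest-old muscle. The edgeR adjusted p were then 0.727 and 0.7. Over 24 libraries Tcf7l2 followed the macrophage sum (r = 0.698).

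Sfrp2 and Sfrp4, inhibitors made by connective tissue cells, did not pass in either comparison with young GFP muscle. Sfrp4 (ENSMUSG00000021319.7, chromosome 13 from 19623104 to 19632994) was at 6.27, 6.37, 5.61 and 4.52 CPM in young GFP, at 6.22, 7.77, 6.35 and 5.43 CPM in old GFP and at 6.29, 5.45, 6.30 and 1.68 CPM in oldest-old GFP muscle. The value of oldest-old GFP replicate 4 lay far below its group, and oldest-old AAV-Kl replicate 3, at 1.73 CPM, was as low. Those libraries also had the lowest summed levels of 10 fibroblast genes, at 1119 and 651 CPM, and of the tenocyte genes, at 104 and 84.7 CPM. Sfrp2 (ENSMUSG00000027996.13, chromosome 3 from 83766321 to 83774316) stood at 1.31, 2.89, 1.18 and 0.870 CPM in young GFP, at 1.99, 1.61, 0.874 and 1.26 CPM in old GFP and at 0.967, 0.700, 1.16 and 0.670 CPM in oldest-old GFP muscle. These ranges overlapped. Over 24 libraries Sfrp2 and Sfrp4 followed the fibroblast sum with r of 0.773 and 0.714, and each other with r of 0.745. These values describe libraries that differ in group and depth. The part of connective tissue content was not tested.

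**Figure D2:**
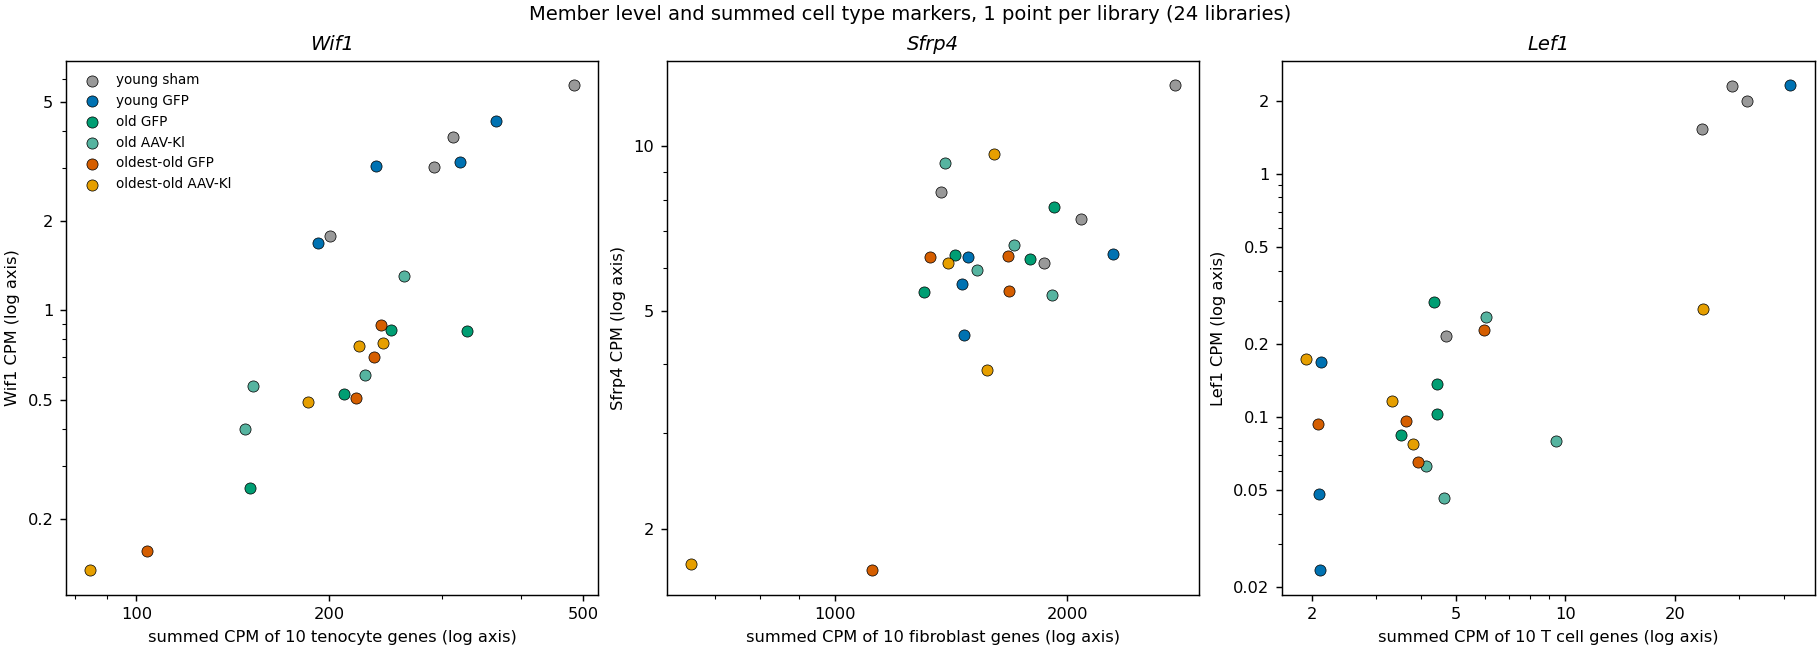
Level of Wif1, Sfrp4 and Lef1 in CPM against the summed CPM of 10 tenocyte, fibroblast or T cell genes, with 1 point per library, 24 libraries and log axes. Oldest-old GFP replicate 4 and oldest-old AAV-Kl replicate 3 lie at the lower left for Wif1 and Sfrp4, and 4 young libraries lie at the upper right for Lef1.

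Lef1 (ENSMUSG00000027985.14, chromosome 3 from 131110471 to 131224356), a TCF/LEF factor abundant in naive T cells, was carried by few libraries. In young GFP muscle it stood at 0.0234, 0.0482, 2.31 and 0.169 CPM, from 1, 2, 124 and 7 reads. In young sham muscle it was at 0.215, 1.53, 1.99 and 2.29 CPM. Among the 16 aged libraries it lay between 0.0466 and 0.296 CPM, from 2 to 17 reads each. Young GFP replicate 3 and young sham replicates 2, 3 and 4 were therefore the only libraries above 1 CPM. The summed level of 10 T cell genes was 41.6 CPM in that young GFP library and 2.10 to 2.13 CPM in the other young GFP libraries. It was 23.8, 31.7 and 28.7 CPM in those sham libraries and 4.70 CPM in sham replicate 1, although 1 aged library, an oldest-old AAV-Kl library, held 23.97 CPM of T cell genes with Lef1 at 0.279 CPM. The r of Lef1 with the T cell sum was 0.85. The log2 difference of Lef1 in old against young GFP muscle was -2.03 (SE 0.958, edgeR adjusted p = 0.253) and became 0.94 without young GFP replicate 3. In oldest-old against young GFP muscle it was -2.39 (adjusted p = 0.104) and became 0.57 without that library.

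**Figure D3:**
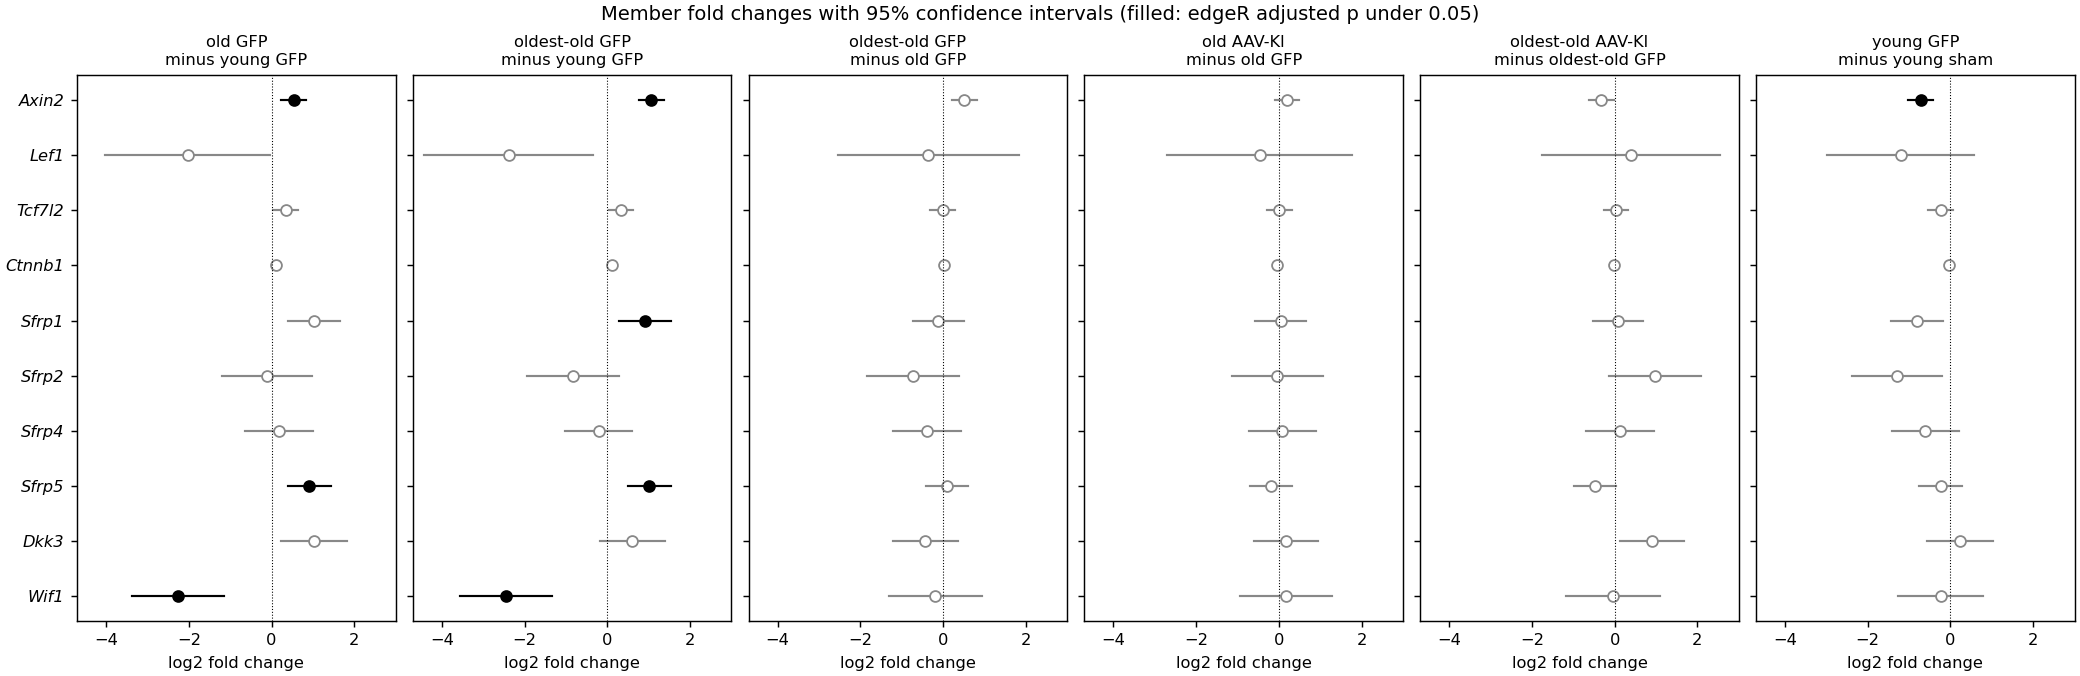
Log2 fold change of each member in 6 comparisons, with 95% confidence intervals derived from the edgeR F statistic and filled points for an adjusted p under 0.05 (n = 4 per group). Filled points are Axin2, Sfrp5 and Wif1 in old against young GFP, these and Sfrp1 in oldest-old against young GFP, and Axin2 in young GFP against young sham.

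Between oldest-old and old GFP muscle no member passed, where 1 of 17803 genes did (0.00562%). At an unadjusted p, 1 member was counted by edgeR and 1 by DESeq2, against 12% of the tested genes, and DESeq2 called 0 members after adjustment. That member was Axin2, with a log2 difference of 0.52 (SE 0.143, edgeR adjusted p = 0.188). All 4 oldest-old values lay above all 4 old values, which gives a two-sided exact permutation p of 0.0286, the smallest that 4 against 4 allows. The log2 difference of Wif1 was -0.19 with a 95% interval from -1.31 to 0.93, and that of Sfrp5 was 0.10 with an interval from -0.41 to 0.60.

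The question of the Klotho groups was whether a vector for Klotho, a protein that binds Wnt ligands, went with altered readouts in muscle. In old mice no member passed after AAV-Kl, and none was counted at an unadjusted p, by edgeR or by DESeq2 (0% and 2.15% of the tested genes by edgeR). Axin2 was at 8.16, 7.20, 8.48 and 7.73 CPM after AAV-Kl, which overlapped old GFP muscle, and the log2 difference was 0.19 with a 95% interval from -0.10 to 0.49. The interval for Ctnnb1 was narrower, from -0.14 to 0.05. Intervals for the inhibitors were wider, from -0.57 to 0.65 for Sfrp1, from -0.71 to 0.31 for Sfrp5 and from -0.93 to 1.29 for Wif1.

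In oldest-old mice no member passed after AAV-Kl (0.0112% of the tested genes did), while 2 members were counted at an unadjusted p by edgeR and 2 by DESeq2, against 8.08% of the tested genes, and DESeq2 called 0 after adjustment. Axin2 was at 7.88, 6.70, 8.84 and 8.13 CPM, with 3 of 4 values below all oldest-old GFP values, and the log2 difference was -0.32 (95% interval -0.62 to -0.03, edgeR adjusted p = 0.577, two-sided exact permutation p = 0.0571). Dkk3 was at 12.03, 5.99, 4.81 and 22.2 CPM, and the groups overlapped. Its log2 difference was 0.89 (SE 0.372, edgeR adjusted p = 0.548, two-sided exact permutation p = 0.286). Replicate 4 of the AAV-Kl mice carried the highest Dkk3 level of the 24 libraries. Oldest-old GFP replicate 4 held the highest Axin2 (12.3 CPM) and the lowest Dkk3 (2.87 CPM) of its group. Without that GFP library, 0 members were counted at an unadjusted p by edgeR. Sfrp2 was at 1.304, 1.31, 0.268 and 4.02 CPM with a log2 difference of 0.98 (adjusted p = 0.656), and AAV-Kl replicate 4 was highest of its group. Sfrp5 was at 21.7, 12.3, 7.86 and 17.1 CPM with a log2 difference of -0.48 (adjusted p = 0.639).

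The difference between the Klotho contrasts, oldest-old minus old, tested whether the response depended on age. No member passed it, where 0.00562% of the tested genes did, and 1 member was counted at an unadjusted p by edgeR and 1 by DESeq2, against 5.76% of the tested genes. DESeq2 called 0 members after adjustment. The member was Axin2, whose AAV-Kl contrast was 0.52 lower on the log2 scale in oldest-old than in old mice (log2 difference of contrasts -0.52, SE 0.201, edgeR adjusted p = 0.831). Without oldest-old GFP replicate 4, 0 members were counted at an unadjusted p by edgeR. For Wif1 the difference of contrasts had a 95% interval from -1.80 to 1.36.

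Young GFP minus young sham compared the young groups with each other. Axin2 fell by 0.71 on the log2 scale in young GFP relative to young sham muscle (SE 0.145, edgeR adjusted p = 0.0315), and all 4 values were lower. It was the only member of 10 called, where 0.472% of the tested genes passed. At an unadjusted p, 3 members were counted, all lower, against 13.4% of the tested genes. Of the genes counted at an unadjusted p, 35.8% were higher in young GFP muscle with TMM scaling and 47.1% with DESeq2 size factors, and Axin2 passed under both. The other members counted were Sfrp1, with a log2 difference of -0.81 (adjusted p = 0.252, no overlap), and Sfrp2, with -1.296 (adjusted p = 0.289, overlap). Sfrp2 of young sham muscle was 2.88, 5.83, 2.703 and 3.92 CPM. Axin2 lost the call without young GFP replicate 1, 2 or 4 or young sham replicate 2 or 3, with a highest adjusted p of 0.157 without young GFP replicate 4, and no member was called without young GFP replicates 1 and 3. The macrophage sum was lower in young GFP than in sham muscle with overlap. At an unadjusted p, 6 of its 10 genes were counted as lower, beside 8.62% of all tested genes. The part of these cells was not tested.

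Since the young groups differed, the aged GFP groups were also set against young sham muscle, a comparison added after the values were seen and one in which vector and age change together. In old GFP against young sham muscle 1 of 10 members passed, beside 3.67% of the tested genes. It was Wif1, which was lower by a log2 difference of -2.50 (SE 0.532, edgeR adjusted p = 0.0105). Axin2 then had the opposite sign, with a log2 difference of -0.17 (95% interval -0.47 to 0.12, adjusted p = 0.522), and Sfrp1 a difference of 0.21 (adjusted p = 0.731). Dkk3 of old GFP muscle lay above all sham libraries, with a log2 difference of 1.25 (SE 0.381, adjusted p = 0.0703), and Sfrp5 likewise, with 0.68 (SE 0.246, adjusted p = 0.12).

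In oldest-old GFP against young sham muscle 4 of 10 members passed, beside 11.6% of the tested genes. Sfrp5 rose by 0.78 (SE 0.246, edgeR adjusted p = 0.0442), a call kept in 1 of 8 fits that left out 1 library, the one without young sham replicate 4, with a highest adjusted p of 0.123 without young sham replicate 2. Wif1 fell by 2.68 (SE 0.538, adjusted p = 0.00349). Sfrp2 fell by 2.13 (SE 0.541, adjusted p = 0.0152), with no overlap, and lost the call without young sham replicate 2 (adjusted p = 0.0542) or oldest-old GFP replicate 4 (0.0551). Lef1 fell by 3.59 (SE 0.985, adjusted p = 0.0226), with overlap and with the T cell genes described above, and lost the call without young sham replicate 3 or 4 or oldest-old GFP replicate 3 or 4, with a highest adjusted p of 0.0729. The calls of Wif1 in both aged groups held in all 8 such fits each. Members called against sham numbered 2 in old GFP muscle without young sham replicate 1, and in oldest-old GFP muscle 1 without oldest-old GFP replicate 4 and 2 without oldest-old GFP replicate 3 or young sham replicate 2 or 3. Axin2 differed by 0.34 (95% interval 0.05 to 0.64, adjusted p = 0.116) and did not pass. Wif1 thus passed in both aged groups against either young group, and Sfrp5 in oldest-old muscle against either, whereas the calls of Axin2 and Sfrp1 were made against young GFP alone.

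**Figure D4:**
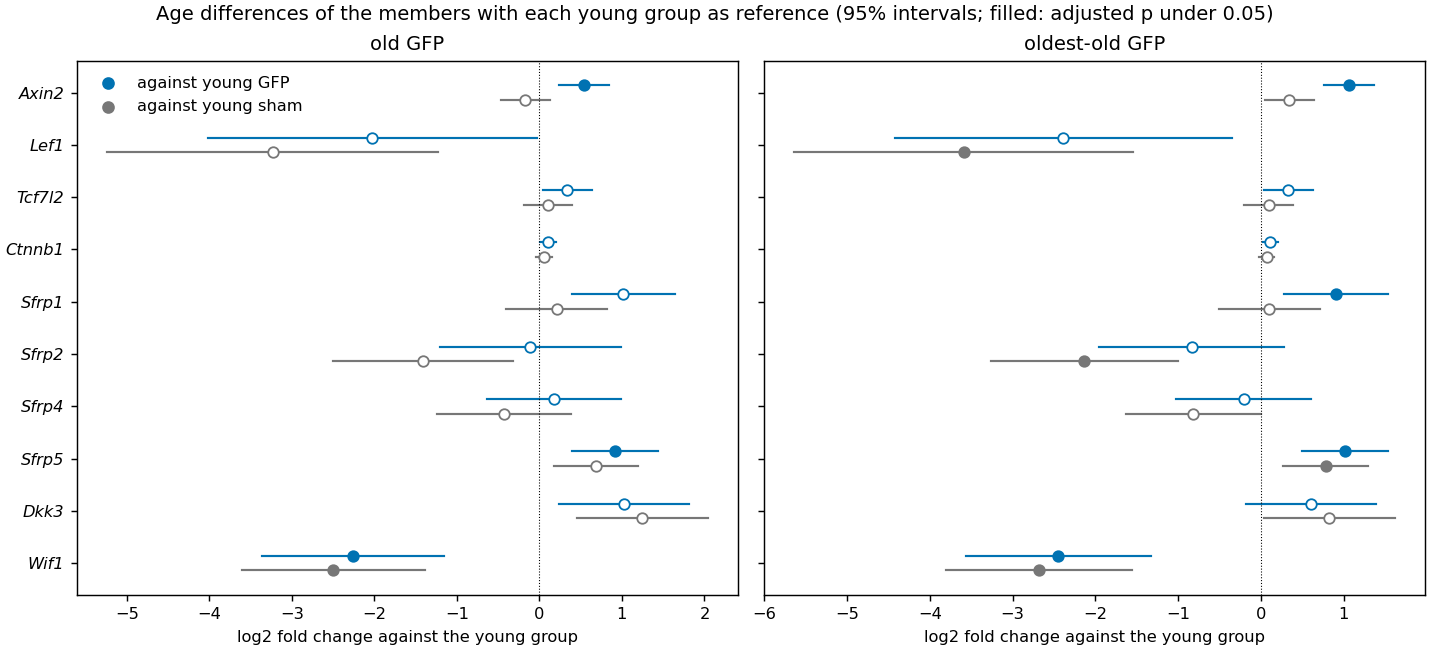
Log2 fold change of each member in old GFP (left) and oldest-old GFP (right) against young GFP and against young sham muscle, with 95% intervals and filled points for an adjusted p under 0.05. Wif1 points are filled in all 4 cases, while Axin2 in old GFP is at 0.54 against young GFP and at -0.17 against young sham.

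The rest of the pathway was described through 86 further genes in 7 lists, of which 71 passed the filter. The 15 below it included Wnt1, Wnt3a, Dkk1, Sost and Sp5. Against young GFP, 7 of the 71 rose and 1 fell in old GFP muscle, and 18 rose and 5 fell in oldest-old GFP muscle, beside the 4.7% and 14.9% of all tested genes given above. Against young sham, 3 and 14 of them were called, beside 3.67% and 11.6%, and 3 of 71 is a share near the background. Between young GFP and young sham 2 were called, both lower, and none in oldest-old against old GFP or in the Klotho comparisons. The following genes are the called ones with the lowest adjusted p of each list.

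Among ligands and their release, Wls, the carrier that brings Wnt proteins to the cell surface, rose by 0.63 in old (SE 0.089, edgeR adjusted p = 0.000461) and by 0.69 in oldest-old GFP muscle (adjusted p = 8.56e-05). It also rose against young sham, by 0.59 and 0.64. Wnt5b, a ligand of the non-canonical branch, rose by 1.08 in oldest-old muscle (adjusted p = 0.00945), and Wnt16 fell by 1.35 (adjusted p = 0.0129). Against young sham Wnt5b rose by 1.07 (adjusted p = 0.0133), while Wnt16 was at -0.87 (adjusted p = 0.104). Of 12 tested ligands, 1 was higher and 1 lower in oldest-old muscle, a share near the 14.9% of all tested genes called there. The list median was -0.03 beside 0.03 over all tested genes. Rspo1 and Rspo3, secreted proteins that strengthen Wnt signaling, rose by 1.18 (adjusted p = 0.0133) and 1.61 (adjusted p = 0.0171) in oldest-old muscle, and Lgr4, a receptor for R-spondins, fell by 0.56 (adjusted p = 0.00363). Rspo3 lost the call without oldest-old GFP replicate 1 or young GFP replicate 3 or 4 (highest adjusted p 0.0698) and against young sham, where it was 1.198 (adjusted p = 0.0703). Rspo1 was also called higher in old than in young GFP muscle (edgeR adjusted p = 0.00358), where young GFP libraries held 6 to 11 reads of it. In young GFP muscle Rspo1 lay below all sham libraries, with a log2 difference of -1.07 (adjusted p = 0.129). Against young sham its difference was 0.58 in old (adjusted p = 0.252) and 0.12 in oldest-old muscle (adjusted p = 0.823).

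Of 16 receptors, 5 rose and 1 fell in oldest-old against young GFP muscle, beside 8.8% and 6.08% of all tested genes. Fzd7, a Frizzled receptor of satellite cells, rose by 0.999 (SE 0.155, edgeR adjusted p = 0.000339), Fzd2 by 0.77 (adjusted p = 0.004) and Fzd6 by 0.53 (adjusted p = 0.0014). Lrp6, the co-receptor, fell by 0.46 (SE 0.09, adjusted p = 0.00241). Fzd7 followed the order of Axin2 in the young groups: it was lower in young GFP than in young sham muscle by a log2 difference of -0.88 (adjusted p = 0.0127), and in old GFP it stood 0.71 above young GFP (adjusted p = 0.011) but at -0.17 against sham (adjusted p = 0.568). The old GFP call of Fzd7 was lost without old GFP replicate 1 or young GFP replicate 4, with adjusted p of 0.0579 and 0.0583, and the young call without young GFP replicate 4 or young sham replicate 2, with 0.0916 and 0.0537. In oldest-old muscle against sham, Fzd7 was at 0.12 (adjusted p = 0.633) and Fzd2 at 0.29 (adjusted p = 0.243), and neither passed, while Fzd6 rose by 0.30 (adjusted p = 0.0466), a call lost in 6 of 8 fits that left out 1 library (all but oldest-old GFP replicate 2 and young sham replicate 2). Lrp6 fell in oldest-old muscle against sham also, by 0.36 (adjusted p = 0.0135), except without oldest-old GFP replicate 4 (adjusted p = 0.0559).

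Among the other extracellular inhibitors, Dkk2, a ligand of Lrp5 and Lrp6, rose by 1.38 in old (SE 0.225, edgeR adjusted p = 0.00153) and by 1.14 in oldest-old GFP muscle (adjusted p = 0.00235). Frzb, a Frizzled-related inhibitor (also called Sfrp3), fell by 0.88 (adjusted p = 0.0432) and 1.12 (adjusted p = 0.00488). The old GFP call of Frzb was lost in 13 of 17 alternative fits, among them all 8 that left out 1 library (highest adjusted p 0.122, without old GFP replicate 1). Both genes were called in the same directions against young sham muscle, Frzb in old GFP not without old GFP replicate 1 or young sham replicate 2. Kremen1, a receptor of Dickkopf proteins, rose by 0.34 in oldest-old muscle (adjusted p = 0.0278) and lost the call in 7 of 8 fits that left out 1 library, all but oldest-old GFP replicate 2. Against young sham, Kremen1 rose by 0.396 in oldest-old muscle (edgeR adjusted p = 0.0163), and that call was kept in all 8 fits that left out 1 library (highest adjusted p 0.0499).

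Among feedback and target genes, Nkd2, an inhibitor induced by the pathway, rose by 0.64 in old (edgeR adjusted p = 0.0173) and 0.59 in oldest-old GFP muscle (adjusted p = 0.0115). The old GFP call was lost without old GFP replicate 2 or young GFP replicate 1 or 4 (highest adjusted p 0.0759) and the oldest-old call without young GFP replicate 4 (0.0527). Against sham its differences were 0.08 and 0.04 (adjusted p = 0.801 and 0.896). Tnfrsf19 rose by 0.67 (adjusted p = 0.0175) and Myc by 0.68 (adjusted p = 0.0448) in oldest-old muscle. Of the 9 tested genes of this list 3 rose and 0 fell there, beside 8.8% and 6.08% of all tested genes, with a median of 0.59. Against sham Tnfrsf19 rose by 0.68 (adjusted p = 0.019) while Myc did not pass. Tnfrsf19 lost the call against young GFP in 3 of 8 fits that left out 1 library (oldest-old GFP replicate 4, young GFP replicate 3 or 4) and against sham in 3 of 8 (oldest-old GFP replicate 4, young sham replicate 2 or 3), and Myc in 5 of 8 (oldest-old GFP replicate 1 or 4, young GFP replicate 1, 2 or 4). In the nucleus, the β-catenin partners Bcl9l, Bcl9 and Pygo2 rose by 0.54, 0.53 and 0.32 in oldest-old against young GFP muscle (adjusted p = 0.000445, 0.00659 and 0.00323). None of these nuclear partners passed against young sham, and Bcl9l was lower in young GFP than in sham muscle, with a log2 difference of -0.40 (adjusted p = 0.0417). That call of Bcl9l was lost in 12 of 15 alternative fits, among them all 8 that left out 1 library and the one with DESeq2 size factors (adjusted p = 0.0549). Dvl2, a Dishevelled protein that relays the receptor signal, rose by 0.24 in oldest-old against young GFP muscle (adjusted p = 0.0352). It was the 1 called gene of 10 in its list, beside 14.9% of all tested genes. The call of Dvl2 was lost in 15 of 17 alternative fits, 7 of them among the 8 that left out 1 library (all but oldest-old GFP replicate 1), and against young sham it was at 0.06 (adjusted p = 0.657).

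**Figure D5:**
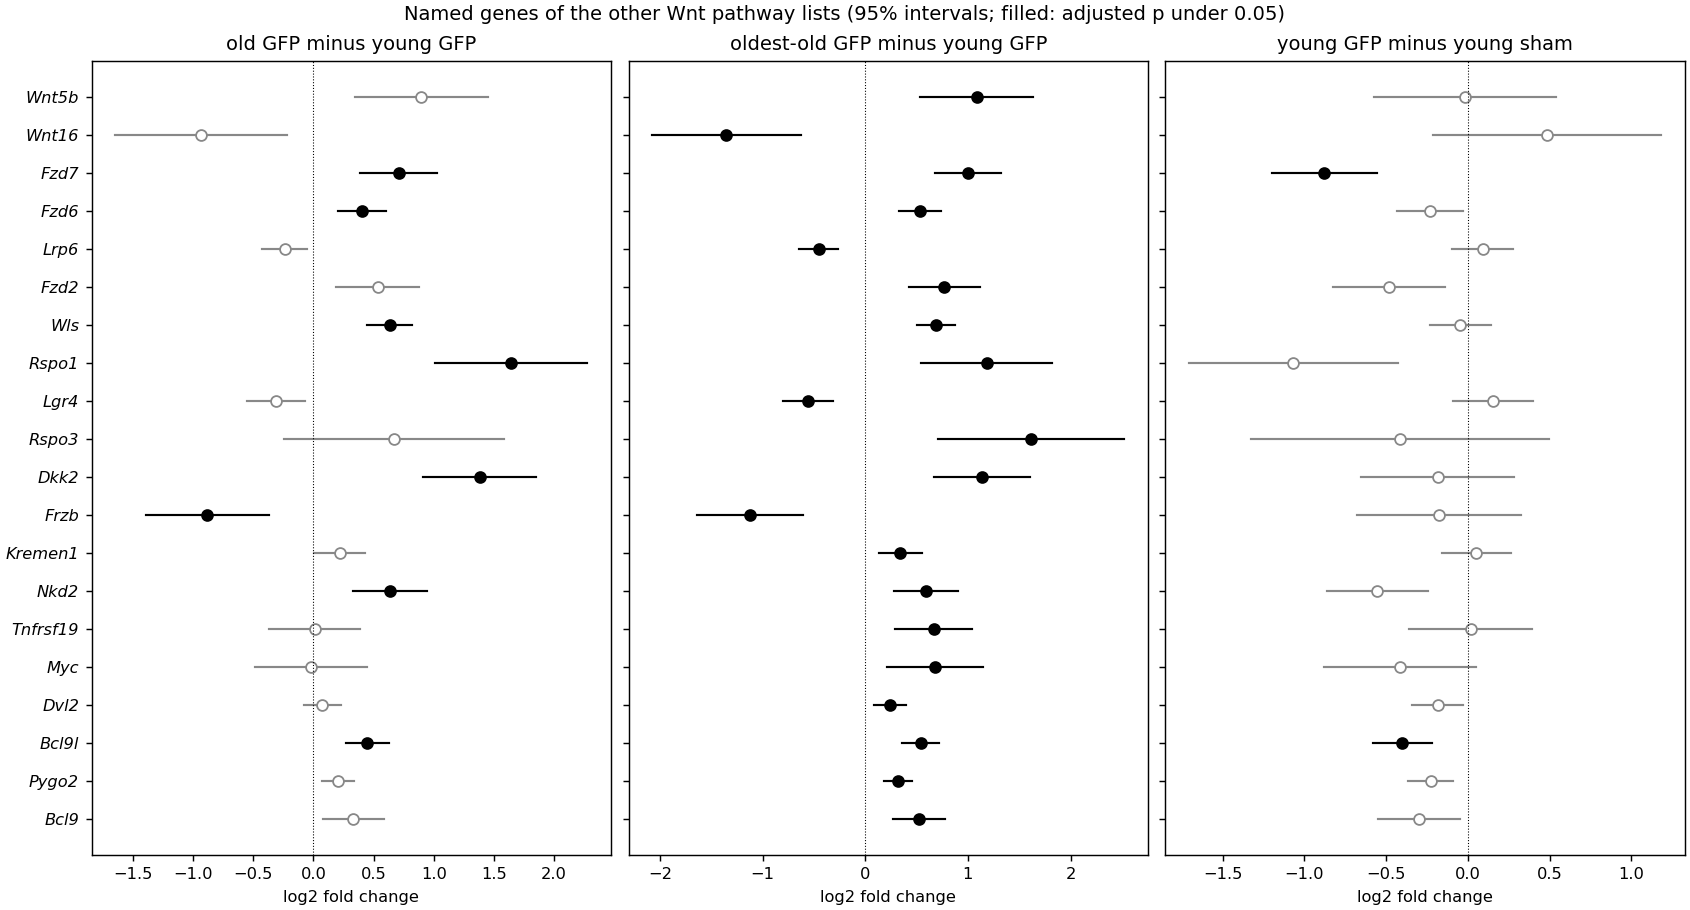
Log2 fold change of 20 named genes of the other Wnt lists in old and oldest-old against young GFP and in young GFP against young sham, with 95% intervals and filled points for an adjusted p under 0.05 (n = 4 per group). Fzd7 and Bcl9l are filled in all 3 panels, above 0 in both age comparisons and below 0 against sham.

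The genes whose levels were most like those of each member over the 24 libraries were found by Pearson r of log2 CPM, as a description. Wif1 was most like Col1a2, Col11a1 and Cilp2, genes of collagen and of the tendon and cartilage matrix (r = 0.921, 0.919 and 0.917), and Cilp2 belongs to the tenocyte list above. Sfrp4 was most like Clec3b, Fn1 and Col6a1, with r from 0.898 to 0.937, and Sfrp2 like Olfml2b, Adamts12 and Chadl, with r from 0.846 to 0.864. Lef1 was most like Gm2682, Cd5 and Cr2 (r = 0.953, 0.926 and 0.916), of which Cd5 is a lymphocyte surface protein and Cr2 a B cell complement receptor. Sfrp5 was most like Ptch1, a Hedgehog receptor, at r = 0.93, then Tenm2 and Ndrg1. Sfrp1 was most like Il33, Cd209f and Ddr2 (0.858 to 0.885), and Dkk3 like Fam174b, Tdrkh and Gm830 (0.856 to 0.879). Axin2 was most like Setd1b, Cep85 and Smarcd1 (0.818 to 0.826), Ctnnb1 like Ap2a1, Trpm4 and Frmd6 (0.806 to 0.82) and Tcf7l2 like Pisd-ps2, Gcsam and Nap1l5 (0.862 to 0.899). Within the members, Axin2 and Wif1 had an r of -0.51 and Sfrp1 and Sfrp5 an r of 0.63.

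Axin2, Lef1 and Sfrp2 share exon sequence with an antisense gene (Gm11670, Gm43352 and Gm26771), and Ctnnb1 with Ulk4 on the other strand and with Mir7090. The counts take no account of strand, so reads on the shared exon sequence cannot be assigned to a gene by strand. Reads assigned to no gene were left out, so such reads may be missing from the counts of these members rather than added to them. How many reads this affected was not tested.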

How the data were processed

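Total RNA of gastrocnemius muscle was sequenced in 24 libraries, 4 per group. The authors aligned the reads with STAR to mouse GRCm38 (mm10) and deposited raw counts per gene without normalization; the annotation release they counted on was not given in the sources used here. The submitters' processing notes also name FastQC and DESeq2. Column 2 of the tables, counted without regard to strand, was used, since the first strand column held 49.8% to 50.4% of strand-specific reads. Lines that name no gene held 23.0% to 25.3% of the reads and were left out. Depth was 36415886 to 59733985 reads on genes, and counting error alone limits low genes such as Lef1. Of 55385 identifiers, 54487 matched GENCODE M21 with their version and 657 more without it.

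The members and gene lists were chosen with earlier results of these data known. Genes were filtered with filterByExpr (minimum count 10) and scaled with TMM, and 17803 genes in all 24 libraries were fitted together with 1 mean per group in edgeR 4.0.16 (R 4.3.3) by the quasi-likelihood test, with Benjamini-Hochberg adjustment over all genes. A gene was called at an adjusted p under 0.05. The log2 CPM used a prior count of 2. Two-sided exact permutation tests on log2 CPM over 4 against 4 libraries cannot go below p = 0.0286. The study's methods describe individual animals as the replicates. All 10 members were named, and, from each other list, the called genes with the lowest adjusted p, up to 4 per list, and the 3 genes most like each member. Alternatives were DESeq2 1.42.0 size factors and Wald test, no filter, 20 libraries without young sham, a fit on only the groups compared, a replicate block, leaving out single libraries or pairs, and, added after the values were seen, young sham in place of young GFP, also without single libraries. The fit was tested on simulated data. Promoter sequences came from RefSeq on GRCm38.p6, with 7 of 10 members matched.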

Additional observations from a re-analysis of the deposited data

Results flagged for a closer look

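In 3 of the 60 sets of 4 libraries formed by 10 members and 6 groups, the highest or lowest library lay so far from the other 3 that its gap, divided by the range of the set, exceeded Dixon's 95% critical value for 4 samples. Chance gives about 1 such set in 20. Tcf7l2 stood at 5.35 CPM in young sham replicate 1, below the other sham libraries (gap over range 0.882). Tcf7l2 stood at 9.05 CPM in oldest-old AAV-Kl replicate 2, above the others of that group (0.907). Sfrp4 stood at 1.68 CPM in oldest-old GFP replicate 4, below the others (0.889), the library that also had the lowest summed fibroblast level of its group, at 1119 CPM.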

How the results depend on the processing

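Of the fold changes called, for members and other named genes, all held their sign under the alternatives run except Axin2 in old against young GFP muscle, which was -0.17 against young sham, and Fzd7 there, which was also -0.17 against young sham. In every case of a lost call or a turned sign the cause was not tested beyond the smaller number of libraries that some fits had. Wif1 in oldest-old against young GFP muscle passed under all 17 alternatives, Axin2 and Sfrp5 there under 16 each and Sfrp1 under 3. In old against young GFP muscle Wif1 passed under 15, Sfrp5 under 6 and Axin2 under 5.

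Same-numbered libraries did not deviate together on average (mean r of 0.006 over 60 pairs, from -0.533 to 0.45), and the numbers were taken as names. By pair of groups the mean ran from -0.16 for oldest-old GFP and oldest-old AAV-Kl to 0.225 for oldest-old AAV-Kl and young sham. A shared order within some of the groups was not tested. With the replicate block, 0 genes passed in oldest-old against old GFP and 0 in the difference of the Klotho contrasts, Sfrp1 in oldest-old against young GFP had an adjusted p of 0.0585, and Tcf7l2 in old AAV-Kl against old GFP was -0.01.

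In old against young GFP muscle, 553 genes passed without the filter, 1275 with only the groups compared, 143 without young GFP replicates 1 and 3 and 268 without old GFP replicates 1 and 4. Members passing were 1 without young sham in the fit, 0 without either pair and 1 against young sham, and at an unadjusted p 4 without either pair and 5 against sham. Leaving out single libraries gave 366 to 679 genes, 1 to 2 members and, unadjusted, 5 to 7 members. Lef1 was 0.51 without young GFP replicates 1 and 3 and lay from -2.55 to 0.94 over single omissions, Sfrp2 from -0.33 to 0.36, and Sfrp4 was -0.43 against sham. Other Wnt genes called were 3, 4 and 3 without the young pair, without the old pair and against sham, and 5 to 9 over single omissions.

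In oldest-old against young GFP muscle, 1755 genes passed without the filter, 1249 with only the groups compared and 874 without young GFP replicates 1 and 3, when 2 members passed, 4 unadjusted, and Lef1 was 0.14. Single omissions gave 1674 to 2755 genes, 4 to 6 members unadjusted, Lef1 from -2.9 to 0.57 and Sfrp4 from -0.37 to 0.06. Other Wnt genes called were 13 without that pair and 14 against sham.

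In oldest-old against old GFP muscle, 120 genes passed with DESeq2 and 0 without the filter, without sham, with only the groups compared and without either pair, and 966 were counted unadjusted without old GFP replicates 1 and 4. With only the groups compared 2 members were counted unadjusted. Tcf7l2 was 0.14 and Ctnnb1 -0.01 without that old pair. Single omissions gave 0 to 3 genes, 1208 to 2974 unadjusted, Lef1 from -0.87 to 0.17, Tcf7l2 from -0.07 to 0.05, Ctnnb1 from -0.02 to 0.03, Sfrp1 from -0.34 to 0.09 and Wif1 from -0.51 to 0.14.

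After AAV-Kl in old mice, 945 genes were counted unadjusted without the filter, and Sfrp1 was -0.06, Sfrp2 0.17 and Sfrp4 -0.05 without old GFP replicates 1 and 4. Single omissions gave 276 to 676 genes unadjusted, Lef1 from -1.28 to 0.06, Tcf7l2 from -0.14 to 0.09, Sfrp1 from -0.07 to 0.16, Sfrp2 from -0.32 to 0.17, Sfrp4 from -0.11 to 0.18 and Wif1 from -0.29 to 0.38. In oldest-old mice 25 genes passed with DESeq2, and with only the groups compared 0 passed, 616 were counted unadjusted and 1 member was. Single omissions gave 1 to 4 genes, 887 to 1915 unadjusted, 0 to 3 members unadjusted, Tcf7l2 from -0.11 to 0.08, Ctnnb1 from -0.04 to 0.01, Sfrp1 from -0.12 to 0.34, Sfrp4 from -0.33 to 0.42 and Wif1 from -0.37 to 0.28. For the difference of the Klotho contrasts 0 genes passed without sham or with only the groups compared, and Tcf7l2 was -0.13 without old GFP replicates 1 and 4. Single omissions gave 0 to 1 genes, 683 to 1414 unadjusted, 0 to 2 members unadjusted, Tcf7l2 from -0.12 to 0.17, Sfrp1 from -0.16 to 0.3, Sfrp4 from -0.41 to 0.34 and Wif1 from -0.55 to 0.24.

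In young GFP against young sham muscle, 290 genes passed with DESeq2, 174 with only the groups compared and 27 without young GFP replicates 1 and 3. Members passing were 0 in both of the last, where Ctnnb1 was 0.01 and Wif1 0.07 without that pair. Other Wnt genes called were 1 with DESeq2 size factors, 1 without the filter, 1 with only the groups compared and 1 without that pair. Single omissions gave 1 to 114 genes (1 without young sham replicate 2), 1526 to 3480 unadjusted, 0 to 2 members, 1 to 3 unadjusted, 0 to 2 other Wnt genes, Ctnnb1 from -0.04 to 0.01 and Wif1 from -0.43 to 0.1. Against young sham, single omissions, added after the values were seen, left 1 to 2 members called in old and 1 to 3 in oldest-old GFP muscle. Depth limits Lef1 most, at 1 to 17 reads in 20 of 24 libraries.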
